A study of Homo sapiens with 36 samples.

Results

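Cells of the human line EA.hy926 that had been kept for 6 weeks in 100 nM PFOA (perfluorooctanoic acid) were compared with cells kept for 6 weeks in the vehicle alone, 0.05% DMSO. The comparison holds 6 of the 36 libraries of the series, 3 biological replicates at 100 nM and 3 of the control, chosen by their labelled concentration and time, and it was tested on the 12201 of 18048 genes whose normalised count averaged at least 10 over the 12 libraries of the 6 week table. The other libraries of that table were kept for 6 weeks in 10 nM or 1 nM PFOA, with 3 libraries each, and the same concentrations and vehicle were sampled at 12 weeks and, at micromolar concentrations, at 48 h. All libraries were made from total RNA of one wild-type cell line, collected during subculture, by the same mRNA sequencing workflow, so the replicates are cultures of 1 line and the p-values measure the spread between those cultures.

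EA.hy926 was made by fusing human umbilical vein endothelial cells with the lung carcinoma line A549, and it carries features of both parents. PFOA is a persistent perfluorinated surfactant shaped like a medium-chain fatty acid, best known in liver for activating the fatty acid receptor PPARα. Immediate early genes such as FOS and EGR1 are transcribed within minutes of a growth factor, stress or flow signal, without new protein synthesis, through factors that wait on their promoters, among them CREB-family proteins at cAMP response elements and serum response factor at CArG boxes. Their products include the feedback phosphatases and Sprouty proteins that switch the MAP kinase pathway off again.

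No gene passed the test between 100 nM and control. Limma called 0 of 12201 genes (0%) at an adjusted p under 0.05, with a smallest adjusted p of 0.272, and edgeR called 0, with 1946 at an unadjusted p under 0.05. DESeq2 called 3 genes (0.0246% of those tested), all with higher values at 100 nM. At an unadjusted p under 0.05, limma had 691 genes with a higher mean at 100 nM (5.66%) and 792 with a lower mean (6.49%), 12.2% together. EdgeR and DESeq2 were less balanced at that threshold, with 504 and 801 genes higher and 1442 and 2199 lower. The 12 genes named below for higher means, among them FOS, EGR1, RHOB and HES1, were at 1.72 to 4.03 times their control mean; they were chosen among genes whose groups do not overlap. Beside them stood a broad shift of transcripts along their base composition.

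The sequencing was even but the composition of the libraries was not. The 100 nM libraries held between 18781701 and 18880507 reads assigned to genes and the controls between 18800445 and 19404971. Ribosomal protein genes took 11.8%, 13.2% and 16.4% of the summed counts in the 100 nM libraries and 19.6%, 18.1% and 17.4% in the controls, a difference of -4.55 percentage points (exact two-sided permutation p = 0.1, the smallest that 3 against 3 allows). The 13 mitochondrially encoded genes took 7.66% ± 1.81 (SD, n = 3) at 100 nM and 10.2% ± 1.12 in controls (n = 3, exact permutation p = 0.2). In a pool of cells, fewer cells of a kind and less RNA per cell cannot be told apart.

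The first principal component held 83.8% of the variance of the 12 libraries at 6 weeks. The 100 nM libraries scored 57.5, 31.8 and 7.74 on it and the controls -113.5, -18.5 and -25.1, so that the groups did not overlap. The 1 nM libraries fell on both sides, at 62.0, -63.8 and -116.5, and those at 10 nM scored 30.3, 84.3 and 63.9. Control replicate 1 stood far from the other controls, and replicate 1 at 1 nM lay among the libraries at 10 and 100 nM. Without control replicate 1 the count at an unadjusted p under 0.05 was 85 in place of 1483, with 0 called. Of the genes with leave-one-out values, those whose fold change below moved by over 1.5 times are given without it as well. Across 12051 genes the loading on this component correlated with transcript GC content (r = -0.72), and so did the log2 fold change of 100 nM minus control (r = -0.68), with genes as points that share the 12 libraries. The median fold change was 0.65 in the decile of genes with the lowest GC content and -1.03 in the decile with the highest. The correlation of the fold change against control with GC content was also -0.68 at 10 nM, -0.29 at 1 nM and, at 12 weeks, -0.68 at 100 nM. This trend lies under the lists below, so their medians are given on the deposited values, after removing a smooth trend on GC content and transcript length within each library, and with the component score as a covariate. The component was computed from the same 12 libraries and its scores did not overlap between 100 nM and control. The covariate therefore also takes up the difference between these groups, and PFOA and the component cannot be told apart by it. For this reason only the GC and length correction bears on base composition. That correction did not remove the shift between libraries. The first component of the corrected values still held 73.9% of the variance. Its scores lay between -0.03 and 40.1 at 100 nM and between -69.5 and -12.4 in controls, again without overlap.

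**Figure D1:**
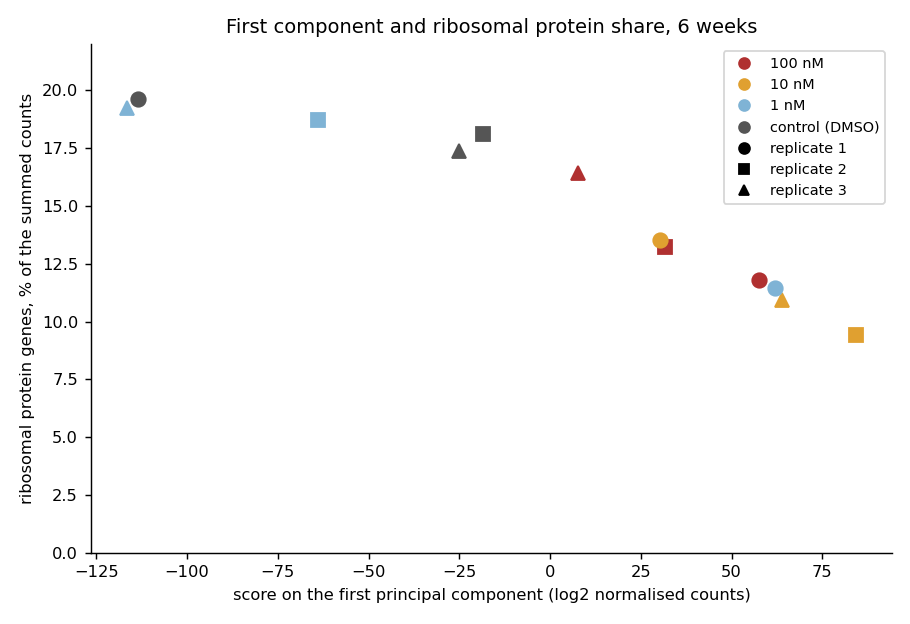
First principal component score (x) and share of the summed normalised counts taken by ribosomal protein genes in percent (y) for the 12 libraries at 6 weeks, coloured by concentration and shaped by replicate. The 100 nM libraries lie at 7.74 to 57.5 with shares of 11.8% to 16.4%, and the controls at -113.5 to -18.5 with 17.4% to 19.6%.

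Endothelial markers were detected in all 6 libraries, where they summed to between 49174 and 130995 normalised counts. Of 24 endothelial markers, 22 averaged at least 10 normalised counts over the 12 libraries at 6 weeks. Among them were the adhesion molecule PECAM1, the junction cadherin CDH5, the transcription factor ERG and the angiopoietin receptor TEK. CLDN5 was at 0 in all 6 libraries and the receptor KDR stayed below the minimum. Of 16 epithelial markers 8 reached the minimum, and CDH1 and CLDN3 were at 0. Of the leukocyte markers 2 of 8 reached it, with SPI1 at 0, and of the fibroblast and smooth muscle markers 1 of 8, with DCN and MYH11 at 0.

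Promoters of some of the genes named below are shown first. Given are the 250 bases before the annotated start, from RefSeq on GRCh38.p14 and read on the gene's strand, for 5 genes with higher values at 100 nM and for CHAC1, which was lower. Capitals mark the core of the cAMP response element, TGACG or its reverse complement CGTCA, the CArG box in EGR1, and in CHAC1 the composite C/EBP-ATF element TGATGCAA, on its reverse strand.
FOS, chr14:75278578-75278827, plus strand: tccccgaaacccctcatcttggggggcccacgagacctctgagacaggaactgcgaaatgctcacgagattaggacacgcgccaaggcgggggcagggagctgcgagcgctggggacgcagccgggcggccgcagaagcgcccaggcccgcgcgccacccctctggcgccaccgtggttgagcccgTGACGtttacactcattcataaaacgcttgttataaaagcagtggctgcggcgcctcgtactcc
FOSB, chr19:45467746-45467995, plus strand: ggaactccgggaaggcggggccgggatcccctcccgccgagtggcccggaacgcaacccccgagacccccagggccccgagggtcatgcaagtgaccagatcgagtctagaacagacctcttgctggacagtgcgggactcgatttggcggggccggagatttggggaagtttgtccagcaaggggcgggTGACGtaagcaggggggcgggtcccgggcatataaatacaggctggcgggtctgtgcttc
EGR1, chr5:138465229-138465478, plus strand: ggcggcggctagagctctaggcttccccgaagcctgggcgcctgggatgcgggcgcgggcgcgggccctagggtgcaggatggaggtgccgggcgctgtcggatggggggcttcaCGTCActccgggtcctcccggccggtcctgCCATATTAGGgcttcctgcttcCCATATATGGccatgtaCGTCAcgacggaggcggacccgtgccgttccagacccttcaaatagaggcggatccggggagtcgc
RHOB, chr2:20446824-20447073, plus strand: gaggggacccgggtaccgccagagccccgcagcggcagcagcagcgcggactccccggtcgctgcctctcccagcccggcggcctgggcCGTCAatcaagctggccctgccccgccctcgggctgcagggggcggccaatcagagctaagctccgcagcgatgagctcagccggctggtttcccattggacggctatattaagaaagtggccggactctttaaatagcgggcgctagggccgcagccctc
HES1, chr3:194135898-194136147, plus strand: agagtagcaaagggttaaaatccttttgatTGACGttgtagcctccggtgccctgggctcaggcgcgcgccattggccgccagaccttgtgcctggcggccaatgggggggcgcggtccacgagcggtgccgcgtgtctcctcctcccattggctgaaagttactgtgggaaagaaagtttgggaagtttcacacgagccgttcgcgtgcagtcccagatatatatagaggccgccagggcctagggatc
CHAC1, chr15:40953221-40953470, plus strand: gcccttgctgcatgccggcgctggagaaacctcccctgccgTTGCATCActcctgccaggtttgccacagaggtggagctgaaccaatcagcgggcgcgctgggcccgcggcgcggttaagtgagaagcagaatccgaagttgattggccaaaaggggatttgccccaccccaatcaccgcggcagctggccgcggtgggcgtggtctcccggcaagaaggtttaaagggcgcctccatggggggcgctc

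All motifs were searched on both strands of the 250 bases. This core ends 60 bases before the start in FOS and 56 bases before it in FOSB, and EGR1 holds it at -135 to -131 and at -66 to -62 on either side of its 2 CArG boxes. Of the 12 genes named below for higher means, 11 had an entry, and 10 of their 17 listed windows held the core, against 3 of the 11 windows of genes named for lower means. Of the 20 windows of immediate early genes 11 held it. The core is short and common: it stood in 27.6% of the 14627 windows of tested genes and in 21.2% of all 35116. The full element TGACGTCA, which contains the core, was in 1.65% of all windows and in 0 of the 17, and the AP-1 site TGANTCA was in 6.57% and in 0. CArG boxes were in 1.16% of all windows and the C/EBP-ATF element in 0.772%. A match is a description of letters and no evidence of binding.

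The 12 genes with the smallest p among those with higher means were RHOB, FOSB, HES1, ID2, MYRIP, KLF4, FOS, TSC22D3, EGR1, ATF3, NR4A2 and IL6. They were taken from the genes with all 3 libraries at 100 nM above every control, 2793 in all (22.9%), while 2981 (24.4%) were lower without overlap, so their separation comes from the choice. Each had an adjusted p of 0.272 in limma. Of the 12, 6 belong to the immediate early list.

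FOS, which pairs with JUN proteins to form the transcription factor AP-1, was at 2425, 2234 and 1522 normalised counts at 100 nM and at 162, 391 and 984 in controls (log2 fold change 2.35 ± 0.68, SE). The lowest treated library held 1.55 times the highest control, and without control replicate 1 the fold change was 1.70. FOSB, its close relative, was at 1640, 1564 and 1751 at 100 nM and at 650, 594 and 916 in controls (1.22 ± 0.27). Here the treated libraries were tightly grouped. EGR1, a zinc finger factor induced through the same kinase pathway, was at 988, 840 and 531 at 100 nM and at 108, 150 and 327 in controls (2.12 ± 0.65).

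ATF3, a stress-induced repressor of the CREB family, was at 895, 863 and 659 at 100 nM and at 221, 396 and 490 in controls (1.19 ± 0.37). NR4A2, an orphan nuclear receptor, was low, at 71.4, 44.9 and 85.3 at 100 nM and at 9.70, 14.2 and 40.4 in controls (1.80 ± 0.57), and its lowest treated library was close to its highest control. RHOB, an endosomal small GTPase that is itself an early response gene, was at 1159, 1158 and 1026 at 100 nM and at 491, 393 and 498 in controls. Its log2 fold change of 1.28 ± 0.25 had the smallest p of the 12. DESeq2 gave it an adjusted p of 0.00371, and its lowest treated library held 2.06 times its highest control. Without control replicate 1 the fold changes were 1.33 for RHOB, 1.16 for FOSB and 1.78 for EGR1.

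The other 2 genes that DESeq2 called, BMI1 and the readthrough TVP23C-CDRT4, lie outside the rule for named genes and are given because they complete its count. BMI1, a Polycomb subunit, was at 127, 61.5 and 0 at 100 nM and at 0 in all 3 controls, and TVP23C-CDRT4 at 109, 54.0 and 0 at 100 nM and at 0 in all 3 controls. One treated library thus equalled the controls for each, and the counts of a gene and of a transcript model that overlaps it can be split between them.

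**Figure D2:**
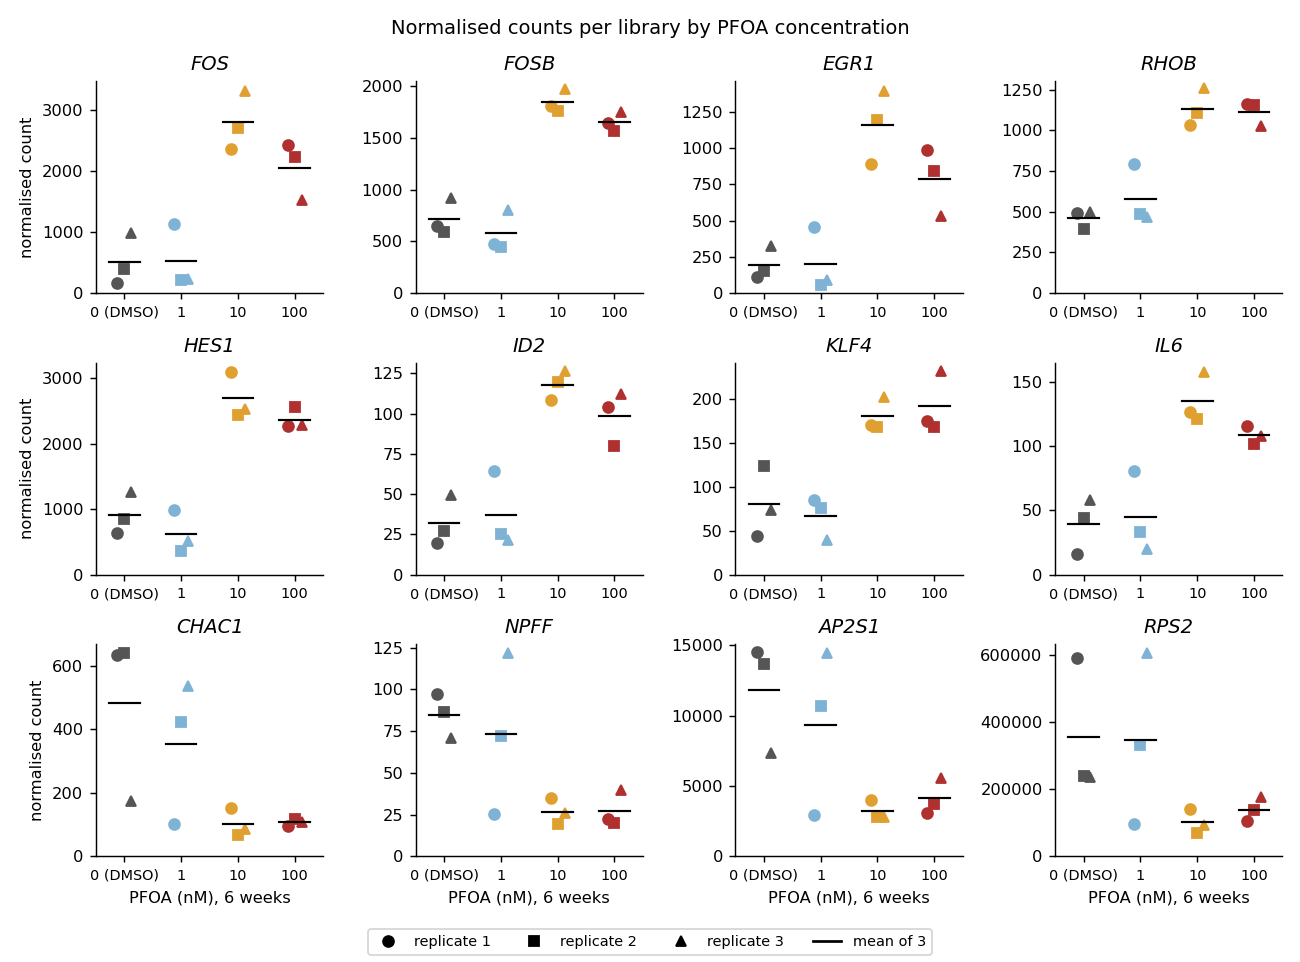
Normalised counts (y) of 12 genes in each library at 0, 1, 10 and 100 nM PFOA for 6 weeks (x), with the replicate given by the symbol and the group mean by the line. FOSB sits at 1564 to 1751 in the 100 nM libraries and at 594 to 916 in controls, and CHAC1 at 96.7 to 116 and 175 to 640.

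Transcription factors of the Notch and BMP responses were also among the 12. HES1, the repressor that Notch induces, was at 2262, 2554 and 2281 at 100 nM and at 632, 856 and 1257 in controls (log2 fold change 1.42 ± 0.36). ID2, which blocks helix-loop-helix factors by pairing with them, was at 104, 79.8 and 112 at 100 nM and at 19.4, 27.4 and 49.5 in controls (1.68 ± 0.43). KLF4, a flow-responsive endothelial factor, was at 175, 168 and 232 at 100 nM and at 43.6, 124 and 73.8 in controls (1.35 ± 0.39). In each of the 3 genes the treated libraries lay close together and a single control came nearest to them.

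TSC22D3, the glucocorticoid-induced leucine zipper protein GILZ, was at 2176, 2284 and 2001 at 100 nM and at 1190, 983 and 1583 in controls (0.81 ± 0.24). IL6, the acute-phase cytokine, was at 116, 101 and 108 at 100 nM and at 16.2, 43.8 and 57.6 in controls (1.62 ± 0.51). MYRIP, a linker of Rab27 vesicles to myosin, was at 103, 97.3 and 49.2 at 100 nM and at 17.8, 16.4 and 31.3 in controls (1.86 ± 0.52). The treated libraries of TSC22D3 and IL6 lay close together, while MYRIP was lower in replicate 3 at 100 nM. Without control replicate 1 IL6 had 1.09.

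These fold changes ran against the GC trend for the most GC-rich of the genes. EGR1, RHOB and FOSB fall in decile 8 of genes by GC content, where the median fold change was -0.54, and FOS, ID2, KLF4 and TSC22D3 in decile 7, where it was -0.30. After the GC and length correction the log2 fold changes were 2.64 for FOS, 2.46 for EGR1, 1.87 for RHOB and 1.67 for FOSB. Adjusted for the component score they were 1.10 for FOS, 0.94 for EGR1, 1.03 for RHOB, 1.39 for FOSB and 0.96 for HES1. All 12 genes stayed higher in both fits, and no adjusted p was under 0.05 in either: the smallest were 0.311 and 0.913.

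**Figure D3:**
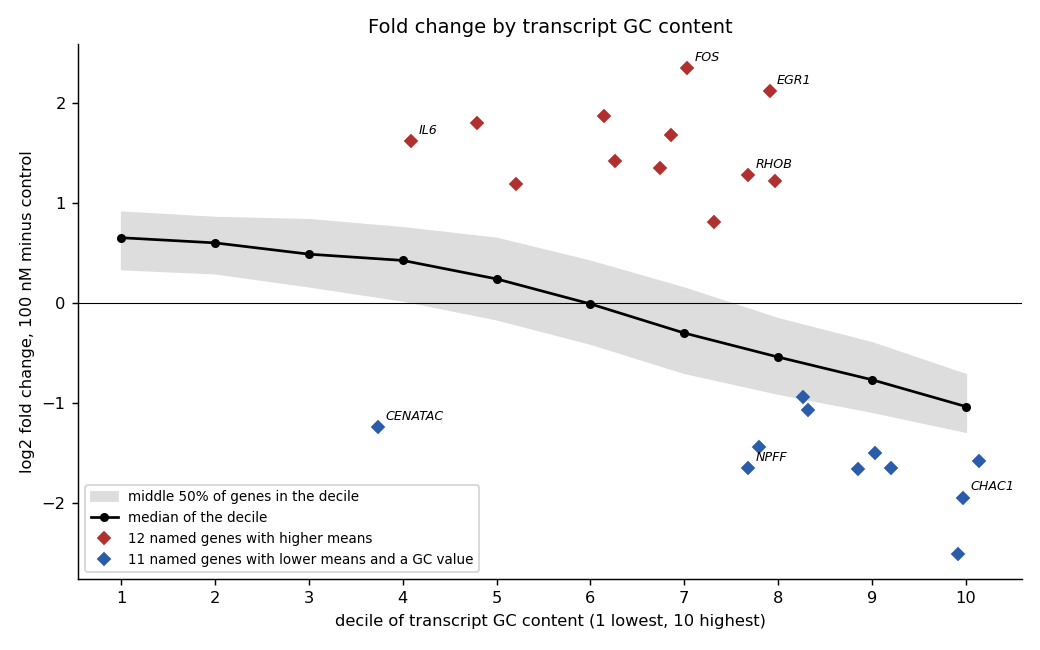
Log2 fold change of 100 nM minus control (y) by decile of transcript GC content (x), with the median and middle 50% of all genes in each decile and the named genes as diamonds. The decile medians run between 0.65 and -1.03, and the 12 genes with higher means, among them FOS at 2.35 and EGR1 at 2.12, lie above the middle 50% of their deciles. These 12 genes were chosen among those higher without overlap at 100 nM.

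Replicate 1 at 1 nM had a component score of 62.0, above that of every 100 nM library. Its values are given as a description, since the ranking that named the 12 genes used the spread of the 1 nM group as well and the genes were chosen for being high at 100 nM. FOSB was at 477 in this library, below every control, and HES1 was at 978 and KLF4 at 84.7, both within the control range. FOS at 1128, EGR1 at 456 and RHOB at 791 were between the controls and the 100 nM libraries.

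Of the 27 listed immediate early genes, 23 were tested, and 19 had a higher and 4 a lower mean at 100 nM, where 51.7% of all genes had a higher mean. Their median log2 fold change was 0.75, against 0.04 for all genes tested. At an unadjusted p under 0.05 the count was 9 higher (5.66% of all genes) and 0 lower (6.49%), and 12 were higher without overlap (22.9% of all genes). Beside the 6 above, these 9 include KLF6, a zinc finger factor (1.56 ± 0.57), ZFP36, which speeds decay of cytokine mRNAs (0.87 ± 0.36), and BTG2, an antiproliferative factor (0.75 ± 0.27). CCN1, a secreted matrix protein, was at 12633, 11283 and 8398 at 100 nM and at 3435, 6399 and 7453 in controls, a log2 fold change of 0.96, or 0.62 without control replicate 1. FOSL1, a late member of the FOS family, went the other way, at 3677, 4713 and 5076 at 100 nM and at 10567, 6532 and 5564 in controls.

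The median of the list was 1.05 after the GC and length correction, with 16 genes higher at an unadjusted p under 0.05 (7.18% of all genes) and 0 lower (6.35%). Adjusted for the component score it was 0.37, with 8 genes higher (0.475% of all genes, which is 58 of 12201) and 0 lower (0.32%). Those 8 were FOS, FOSB, EGR1, ATF3, RHOB, BTG2, NR4A2 and the receptor NR4A1, whose groups overlapped at 325, 300.2 and 441 at 100 nM and 265, 178 and 302 in controls. JUN, the partner of FOS, was at 8484, 9042 and 5337 at 100 nM and at 7040, 3935 and 6773 in controls, so its groups overlapped too.

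The feedback inhibitors of the same kinases also had higher means for the most part. Of 15 MAP kinase feedback phosphatases and Sprouty genes tested, 12 had a higher mean at 100 nM, 4 at an unadjusted p under 0.05 (5.66% of all genes), with a median log2 fold change of 0.75. DUSP5, a nuclear ERK phosphatase, was at 3123, 3245 and 1907 at 100 nM and at 643, 963 and 1455 in controls (1.47 ± 0.48). SPRY2, a membrane inhibitor of receptor kinases, was at 1497, 1241 and 625 at 100 nM and at 142, 294 and 520 in controls (1.91 ± 0.70). DUSP6, a cytoplasmic ERK phosphatase, had 1.39 ± 0.53, and DUSP1, the stress kinase phosphatase, 1.11 ± 0.39. The groups did not overlap in any of these 4 genes, as in 22.9% of all genes on the higher side. Replicate 1 at 1 nM was at 2426 for DUSP5 and at 1402 for SPRY2, within the range of the 100 nM libraries for both. The list median was 0.55 after the GC and length correction and 0.31 with the component.

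Of 17 Notch pathway genes tested, 10 had a higher mean and 7 a lower one, with a median of 0.27, 0.54 after the GC and length correction and 0.095 with the component. Without control replicate 2 the median was 0.06. HEY1, an endothelial Notch target, was at 58.3, 73.2 and 71.4 at 100 nM and at 8.08, 51.5 and 30.3 in controls (1.47 ± 0.62, or 0.75 without control replicate 1), while HES4, whose transcript is among the most GC-rich, had -1.45 ± 0.71 and 0.045 after the GC and length correction. Of 10 ID proteins and inhibitory SMADs, 7 had a higher mean (median 0.26, 0.32 after the correction, 0.13 with the component). SMAD7, which inhibits TGF-β and BMP receptors, was at 176, 185 and 119 at 100 nM and at 16.2, 72.3 and 84.9 in controls (1.73 ± 0.70, or 0.99 without control replicate 1), but ID1 and ID3 overlapped between groups, with -0.14 ± 0.38 and -0.74 ± 0.45, and were at 0.80 and 0.099 after that correction. KLF2 and NOS3, the flow-induced factor and the nitric oxide synthase it induces, overlapped as well, at 0.44 ± 0.32 and -0.47 ± 0.38, and NOS3 was at 0.21 after the correction. Without control replicate 1 NOS3 was at -0.11 and ID3 at -0.44, and without control replicate 2 KLF2 was at 0.22. Thrombomodulin, THBD, which turns thrombin into an anticoagulant enzyme, was at 7011, 6970 and 5975 at 100 nM and at 2473, 4245 and 3977 in controls (0.94 ± 0.41).

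YAP targets, which report tension on the cytoskeleton, had 13 of 15 genes with a higher mean, 5 of them at an unadjusted p under 0.05 (5.66% of all genes), and a median of 0.76. The median was 0.70 after the GC and length correction and 0.07 with the component. AMOTL2, an angiomotin, had 1.19 ± 0.52, TEAD1, the DNA-binding partner of YAP, 1.41 ± 0.57, and F3, tissue factor, 1.78 ± 0.62. F3 was a low gene, at 21.5, 24.9 and 14.8 at 100 nM and at 4.85, 3.29 and 8.09 in controls, and it also opens the coagulation list. There 11 of 14 genes had a higher mean (median 0.44, 0.21 after the correction, 0.19 with the component), among them the protease inhibitor SERPINE2 (1.80 ± 0.70) and the matrix protein THBS1 (1.62 ± 0.68), and 4 were higher and 0 lower at an unadjusted p under 0.05 (5.66% and 6.49% of all genes).

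Among 16 inflammatory cytokines and chemokines, 13 had a higher mean at 100 nM, 4 of them at an unadjusted p under 0.05 (5.66% of all genes) and 0 lower, with a median of 0.56. That median was 0.62 after the GC and length correction and 0.35 with the component. CXCL8, the neutrophil chemokine, was at 568, 474 and 581 at 100 nM and at 134, 363 and 287 in controls (1.16 ± 0.46, or 0.74 without control replicate 1). IL1A, an alarmin cytokine, was at 638, 544 and 627 at 100 nM and at 213, 351 and 412 in controls (0.94 ± 0.32), and IL1B, its secreted relative, at 2585, 2862 and 3161 at 100 nM and at 1212, 2432 and 1704 in controls (0.74 ± 0.30, or 0.49 without control replicate 1). The NF-κB subunits and inhibitors, which control these genes, did not share the direction: 6 of 16 had a higher mean and the median was -0.50 (-0.10 after the correction, 0.04 with the component, -0.27 without control replicate 1). This median was -0.25 with quantile normalisation and 0.053 with scaling to total reads. NFKBIZ, an atypical nuclear inhibitor, had 1.27 ± 0.47 and NFKB2 -1.28 ± 0.64, or -0.83 without control replicate 1.

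Of 17 endothelial transcription factors 13 had a higher mean, with a median of 0.58, 0.68 after the GC and length correction and 0.09 with the component. Without control replicate 1 it was 0.38. ETS1, a driver of angiogenic genes, was at 1551, 1049 and 659 at 100 nM and at 139, 445 and 419 in controls (1.79 ± 0.80), and SOX17, an arterial factor, at 203, 195 and 179 at 100 nM and at 84.1, 93.1 and 129 in controls (0.93 ± 0.33). LYL1, a helix-loop-helix factor, had -1.53 ± 0.61. Junction and surface genes split into 8 higher and 10 lower means (median -0.19, -0.29 after the correction, 0.0067 with the component, -0.10 without control replicate 1). Quantile normalisation put this median at 0.12. Scaling to total reads put it at 0.36, where the median of all genes was 0.59. S1PR1, the sphingosine phosphate receptor, had 1.35 ± 0.59, or 0.78 without control replicate 1, while ICAM2, an integrin ligand, had -1.22 ± 0.54 and EGFL7, a secreted vascular factor, -1.56 ± 0.70. PECAM1 and CDH5 overlapped between groups, at -0.30 ± 0.23 and 0.61 ± 0.37. TEK, of the angiopoietin receptor list, had 1.45 ± 0.60.

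The 12 genes with the smallest p among those with lower means were NPFF, NOTCH2NLC, CHAC1, KCND1, LRRC71, SAP25, CENATAC, AP2S1, PROCA1, MEF2B, YJEFN3 and TMEM223. They were taken from the genes below every control in each treated library, and each had an adjusted p of 0.272. CHAC1, a glutathione-degrading enzyme and a target of the stress factor ATF4, was at 96.7, 116 and 109 at 100 nM and at 635, 640 and 175 in controls (-1.95 ± 0.63). Control replicate 3 lay well below the other controls. The fold change was -0.97 after the GC and length correction and -0.86 with the component.

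NPFF, a neuropeptide precursor, was at 22.3, 20.0 and 39.9 at 100 nM and at 97.0, 86.6 and 70.8 in controls (-1.65 ± 0.50). AP2S1, the small subunit of the clathrin adaptor AP-2, was at 3073, 3742 and 5534 at 100 nM and at 14491, 13700 and 7323 in controls (-1.50 ± 0.53). CENATAC, a factor of minor spliceosome splicing, was at 163, 184 and 280 at 100 nM and at 626, 484 and 371 in controls (-1.24 ± 0.43), and it was the 1 gene of the 11 with a GC value that lay in a decile with a positive median, 0.43. Its fold change was -1.45 after the correction. All the others with a GC value lay in deciles 8 to 10, where the median fold changes were -0.54, -0.77 and -1.03. KCND1, a potassium channel, had -0.94 ± 0.31. MEF2B, whose gene overlaps a readthrough transcript, and NOTCH2NLC, which shares nearly identical sequence with other NOTCH2-related genes, have counts that can be split between copies.

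Of 20 tested genes of the ATF4 stress response, 13 had a lower mean at 100 nM, with CHAC1 and NUPR1 (-1.62 ± 0.69) at an unadjusted p under 0.05 (6.49% of all genes). The median was -0.24, or -0.098 without control replicate 1, but 0.08 after the GC and length correction, -0.012 with the component, 0.07 with quantile normalisation and 0.31 with scaling to total reads. ASNS, asparagine synthetase, was at 3311, 3118 and 3896 at 100 nM and at 3576, 5994 and 2272 in controls, and DDIT3, the factor CHOP, at 416, 482 and 669 at 100 nM and at 1047, 515 and 748 in controls. Both overlapped between groups. PHGDH, the first enzyme of serine synthesis, had -1.13 ± 0.54, or -0.74 without control replicate 1.

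The genes of lipid metabolism, the pathway for which PFOA is best known, did not move one way. Of 21 genes of the PPAR and fatty acid oxidation list, 10 had a higher and 11 a lower mean, with a median of -0.06, -0.20 after the GC and length correction, 0.028 with the component and between -0.14 and 0.091 with 1 library left out. Other scalings moved this median further, to -0.23 with quantile normalisation. Scaling to total reads moved it to 0.49, where the median of all genes was 0.59. ACADM, the medium-chain acyl-CoA dehydrogenase, was at 576, 471 and 302 at 100 nM and at 82.4, 201 and 281 in controls (1.37 ± 0.61, or 0.87 without control replicate 1), while UCP2, a mitochondrial carrier, was at 180, 212 and 254 at 100 nM and at 1060, 482 and 413 in controls (-1.48 ± 0.57). CPT1A, the carnitine transferase that PPARα induces in liver, had 0.49 ± 0.27, and ANGPTL4, a secreted PPAR target, -1.24 ± 0.66, or -0.82 without control replicate 1 and 0.16 with the component. PDK4, another such target, was below the minimum of 10. Of 24 cholesterol genes 11 had a higher mean, 5 of them at an unadjusted p under 0.05 (5.66% of all genes), among them HMGCS1 (1.54 ± 0.54), SQLE (1.65 ± 0.67, or 1.05 without control replicate 1) and INSIG1 (0.88 ± 0.34), targets of the sterol factor SREBP2. The list median was -0.06 (0.14 after the correction, 0.17 with the component), and it lay between -0.23 and 0.16 with 1 library left out. Quantile normalisation gave 0.27 for this list and scaling to total reads 0.50. EBP, a later enzyme of the pathway, had -1.15 ± 0.56.

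Ribosomal protein genes and respiratory chain subunits had lower means for the most part. All 79 cytosolic ribosomal protein genes had a lower mean at 100 nM, where 48.3% of all genes did, with a median of -0.81, 13 at an unadjusted p under 0.05 (6.49% of all genes) and 62 without overlap (24.4%). RPS2 was at 103353, 137344 and 175546 at 100 nM and at 590041, 237239 and 235582 in controls. Control replicate 1 was far above the other controls, and without it the fold change of RPS2 was -0.80 in place of -1.24. The list median without that library was -0.59. The list median was -0.72 after the GC and length correction and -0.05 with the component, and RPS2 was then at 0.016. Quantile normalisation gave a list median of -0.07. Scaling to total reads gave -0.26, where the median of all genes was 0.59. Many of these genes have processed pseudogenes with near-identical sequence, so their counts are uncertain. The cytosolic aminoacyl-tRNA synthetases, which charge tRNAs for the ribosome, split into 8 higher and 12 lower means (median -0.32, -0.31 after the correction, -0.031 with the component, -0.20 and -0.48 without control replicates 2 and 3). Quantile normalisation put the median of the synthetases at 0.17 and scaling to total reads at 0.24.

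Nuclear-encoded respiratory chain subunits had a lower mean in 39 of 48 cases (median -0.65, 11 at an unadjusted p under 0.05 and 0 higher, where 6.49% and 5.66% of all genes were) and mitochondrial ribosomal proteins in 33 of 43 (-0.61). After the GC and length correction the medians were -0.41 for the respiratory chain and -0.25 for the mitochondrial ribosome, and with the component -0.04 and -0.05. Under quantile normalisation these medians were -0.18 and -0.44, and with scaling to total reads -0.09 and -0.05. ATP5F1D, a subunit of the ATP synthase, had -1.66 ± 0.75 and NDUFB7, of complex I, -1.63 ± 0.72. The mitochondrially encoded genes had a lower mean in 13 of 13 cases, with 0 at an unadjusted p under 0.05. Their median was -1.01, -0.82 after the correction, -0.015 with the component, -0.15 with quantile normalisation and -0.46 with scaling to total reads. MT-ND4 was at 129405, 171986 and 307351 at 100 nM and at 637791, 526490 and 357121 in controls. Its highest treated library was replicate 3, which also had the lowest component score of the 3. The part of base composition in these lower means beyond the GC and length correction was not tested.

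Interferon-stimulated genes had a lower mean in 15 of 22 cases (median -0.22, -0.23 after the correction, -0.032 with the component, -0.39 without control replicate 2 and 0.33 with scaling to total reads), with ISG15, a ubiquitin-like modifier, at 531, 788 and 1431 at 100 nM and 5362, 2349 and 1808 in controls. The glycolytic enzyme GAPDH, often used to scale other genes, had -1.48 ± 0.67, while HK2 and PFKFB3, which control entry into glycolysis, had 1.35 ± 0.51 and 1.22 ± 0.50. The hypoxia and glycolysis list as a whole had 15 higher and 17 lower means (median -0.047, -0.046 after the correction, 0.064 with the component, and between -0.016 and 0.075 with 1 library left out). Its median was 0.30 with quantile normalisation and 0.51 with scaling to total reads. Of the 8 tested epithelial markers, 7 had a lower mean, where 48.3% of all genes did. Their median was -1.17, -0.32 after the GC and length correction and -0.12 with the component. Quantile normalisation gave -0.75 and scaling to total reads -0.61. The keratin KRT18 was at 11613, 12477 and 26058 at 100 nM and at 51304, 38213 and 36293 in controls (-1.41 ± 0.57), and EPCAM, an adhesion molecule near the minimum, had 1.37 ± 0.48. The summed epithelial markers ranged between 28797 and 55930 at 100 nM and between 74890 and 143418 in controls, and the summed endothelial markers between 49174 and 58996 and between 68801 and 130995. These sums are on the deposited scale and are not shares of a library. On that scale the counts of all genes summed to between 14418500 and 17420300 at 100 nM. In controls all genes summed to between 19008800 and 31366700. The part of cell make-up in the other results was not tested.

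The 10 nM and 1 nM libraries share their controls with the 100 nM libraries, so the values are set side by side. At 10 nM against control, 2659 genes (21.8%) were higher and 2706 (22.2%) lower at an unadjusted p under 0.05, with 0 called by limma. FOS had 2371, 2710 and 3325 at 10 nM, EGR1 888, 1191 and 1395, and CHAC1 151, 67.8 and 86.5. Directly compared, 100 nM and 10 nM had 0 genes called by limma, edgeR and DESeq2, and limma had 14 (0.115%) at an unadjusted p under 0.05. FOSB differed by -0.16 ± 0.27 and RHOB by -0.02 ± 0.25, in both cases less than 1 standard error. The genes with the smallest p were PIK3IP1 (0.57 ± 0.30), CARD16 (0.47 ± 0.27) and ZNF419 (0.36 ± 0.21) on the higher side and UMAD1 (-0.92 ± 0.38), CPED1 (-0.83 ± 0.45) and ATAD5 (-0.66 ± 0.38) on the lower.

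Against 1 nM, 100 nM had 0 genes called by limma and edgeR, 344 (2.82%) at an unadjusted p under 0.05 by limma, and 2 called by DESeq2. Those 2 were FOSB, at 477, 447 and 804 at 1 nM (log2 fold change 1.57 ± 0.27, limma adjusted p = 0.389, DESeq2 adjusted p = 0.00177), and HES1, at 978, 367 and 517 at 1 nM (2.05 ± 0.36, DESeq2 adjusted p = 0.00189). Neither gene overlapped between these concentrations. KLF4 had 1.57 ± 0.39. On the lower side stood NOTCH2NLC (-1.02 ± 0.29), GATD1 (-0.94 ± 0.34) and DNASE1L2 (-1.70 ± 0.64).

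The genes given here at 12 weeks were chosen by their difference at 6 weeks, so their 12 week values are a description. FOS was at 2097, 496 and 2433 at 100 nM and at 710, 424 and 2612 in controls, and EGR1 at 402, 115 and 687 at 100 nM and at 244, 233 and 701 in controls. Both overlapped between groups. The groups of RHOB did not overlap, at 1911, 2070 and 2704 at 100 nM and at 1520, 1432 and 1641 in controls (0.53 ± 0.28), nor did those of ATF3 (0.94 ± 0.33) and ID2 (0.89 ± 0.38). The share of all genes without overlap was not counted at 12 weeks, and at 6 weeks it was 22.9% on the higher side. CXCL8 had 1.62 ± 0.54 at 12 weeks, and its groups overlapped. The change of the difference with time, tested on 12037 genes, was called in 0 by limma and edgeR (68, or 0.565%, at an unadjusted p under 0.05 by limma) and in 1 by DESeq2, TVP23C-CDRT4. It was -0.75 ± 0.34 for RHOB, -0.97 ± 0.44 for FOSB and -2.23 ± 1.05 for EGR1, genes whose choice by the 6 week difference enters this value. The genes with the smallest p were ABCC9 (1.34 ± 0.51), ASRGL1 (0.92 ± 0.39) and MCM4 (0.65 ± 0.28) upward and NDRG4 (-1.21 ± 0.39), FAM227A (-1.13 ± 0.41) and NLRC3 (-0.72 ± 0.26) downward.

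**Figure D4:**
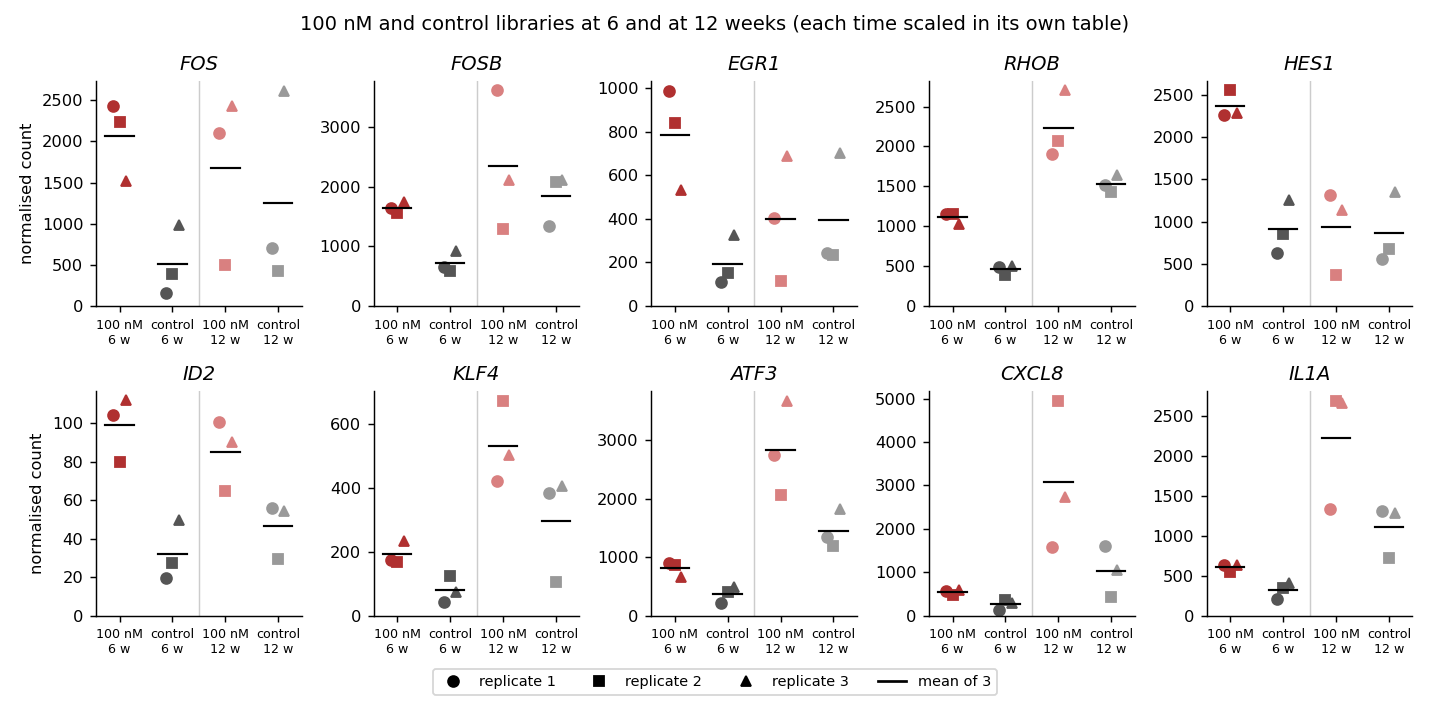
Normalised counts (y) of 10 genes in the 100 nM and control libraries at 6 and 12 weeks (x), each time scaled in its own table, with the replicate given by the symbol and the group mean by the line. The genes were chosen with their 6 week values known, where the groups of all 10 are apart. At 12 weeks FOS, FOSB, EGR1, HES1 and CXCL8 overlap, with FOS at 496 to 2433 at 100 nM and 424 to 2612 in controls.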

How the data were processed

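Messenger RNA of 6 libraries, 3 at 100 nM PFOA and 3 of the vehicle control, was compared at 6 weeks. The authors deposited normalised counts per gene, a signal in which each library's counts are divided by 1 size factor. Per the submitters' processing notes the tools were HISAT, Bowtie2 and DESeq2 with GRCh38.p14. How reads were counted, and whether by strand, is not given in the sources used here, so reads of overlapping genes cannot be told apart. All values came back as whole reads, within 0.01, when divided by the size factor step, and the recovered depth was between 18781701 and 19404971 reads in these 6 libraries. The 48 h table was not used, and 1 row without a gene name was left out.

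Log2(value + 1) of genes with a mean of at least 10 was fitted with limma 3.58.1 (trended empirical Bayes) in R 4.3.3 on all 12 libraries at 6 weeks, with 1 mean per concentration, Benjamini-Hochberg adjustment and a threshold of 0.05, two-sided. Fold changes on this scale understate those of low genes, and errors beside them are standard errors. EdgeR 4.0.16 (quasi-likelihood) and DESeq2 1.42.0 were run on the recovered reads as alternatives, as were other pseudocounts and filters, quantile and TMM scaling, library quality weights, a replicate block, a correction for GC content and length, the first component as a covariate, and each library left out. Scaling to total reads and leaving out the 1 and 10 nM libraries were added after the data were seen. The 12 and 6 week tables were normalised separately and joined only for the difference of differences. The fits were also run on simulated counts with planted changes. These were drawn without a shared component or GC trend, so the simulation does not bear on either.

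Named genes were those with the smallest p, up to 12 per direction, with official symbols, non-overlapping groups and a mean of 50 or more, then members of the gene lists. These members and lists were chosen with earlier results of these data known. GC content and length were matched for 98.8% of genes. Promoter windows come from RefSeq by symbol.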

Additional observations from a re-analysis of the deposited data

How the results depend on the processing

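Of 27 other settings for 100 nM minus control, 25 also called 0 genes. DESeq2 called 3 and library quality weights (gene-by-gene method) 5388, 2664 of them higher and 2724 lower. The weights ran between 0.0866 and 13.1 and gave little weight to replicate 1 at 1 nM and to control replicate 1. Leaving out 1 library at a time gave 0 to 0 calls, but the count at an unadjusted p under 0.05, 1483 with all libraries, was 85 without control replicate 1, 92 and 215 without replicates 1 and 2 at 100 nM, 5135 and 3552 without replicates 1 and 3 at 1 nM, 910 and 789 without replicates 2 and 3 at 10 nM, and 4469 with the 6 compared libraries alone. For 100 nM minus 10 nM the quality weights called 3622. For 100 nM minus 1 nM they called 8214 and DESeq2 2, and leaving out 1 library gave 0 to 6009 calls, the highest without replicate 1 at 1 nM. For the change with time DESeq2 called 1. The ribosomal share difference was -5.85 to -3.54 percentage points with 1 library left out, and the mitochondrial one -3.56 to -1.84. The cause of these moves was not tested.

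Replicate numbers were not used to pair the libraries in the main fit. The deviations of same-numbered libraries at 100 nM and in controls correlated at -0.62, -0.31 and -0.57 across genes. Those of differently numbered libraries correlated at between -0.18 and 0.59. Whether same-numbered libraries shared a culture or batch was not tested. The replicate block called 0 genes in 100 nM minus control, with 563 at an unadjusted p under 0.05.

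Among 95 genes over these settings, 32 of 2561 values turned sign, none of them called. With the GC and length correction, and with the block beside it, HES4 was at 0.045, ID1 at 0.80, ID3 at 0.099, NOS3 at 0.21 and VEGFB at 0.011. With the first component HES4 was at 0.044, ID3 at 0.12, NOS3 at 0.13, ASNS at 0.032, DDIT3 at 0.32, ANGPTL4 at 0.16, MT2A at 0.073, NFKB2 at 0.071, RPS2 at 0.016 and RPL3 at 0.0039. With quality weights ASNS was at 0.22. With quantile normalisation ID1 was at 0.37, NOS3 at 0.041, ASNS at 0.40 and PECAM1 at 0.014, and with scaling to total reads, which gave a median of all genes of 0.59 in place of 0.04, ID1 was at 0.41, NOS3 at 0.084, ASNS at 0.46, DDIT3 at 0.024 and PECAM1 at 0.26. With 1 library left out, ASNS was between -0.43 and 0.27, above 0 without control replicate 2, and ID1 between -0.41 and 0.091, above 0 without control replicate 3. Quality weights called 88 of the 95 genes.

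Depth was even across the 6 libraries, and genes that averaged under 10 normalised counts were not tested.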

Other observations

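Several other gene lists held genes without overlap between the groups. Of all genes, 22.9% were higher and 24.4% lower without overlap, so this does not set the genes below apart. GCLC, the limiting enzyme of glutathione synthesis, was at 627, 494 and 376 normalised counts at 100 nM and at 139, 281 and 285 in controls, with a log2 fold change of 1.13 ± 0.50. FTL, the ferritin light chain, had -1.25 ± 0.52, and the 26 tested NRF2 and antioxidant genes split into 11 higher and 15 lower means. HSPA5 and DNAJB9, chaperone and cochaperone of the endoplasmic reticulum, had 0.89 ± 0.38 and 1.25 ± 0.55, with 14 of 19 genes of that list higher (median 0.56, 0.18 after the GC and length correction, 0.0017 with the component and 0.28 without control replicate 1). HSPB1, a small heat shock protein, had -1.66 ± 0.73. None had an adjusted p under 0.272 in limma.

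Cell cycle genes did not move one way. Of 29 DNA replication genes, 16 had a higher and 13 a lower mean at 100 nM, with a median of 0.07, between -0.06 and 0.32 with 1 library left out, and 0 at an unadjusted p under 0.05. Of 28 mitosis genes 18 had a higher mean. Their median was 0.31, -0.0098 after the GC and length correction, -0.13 with the component and 0.089 without control replicate 1. CDC20, an activator of the anaphase-promoting complex, had the lowest fold change of that list (-1.28 ± 0.59). It was at 4110, 4955 and 5369 at 100 nM and at 22113, 8767 and 8157 in controls, with control replicate 1 far above the others. TIPARP, an aryl hydrocarbon receptor target, had 1.36 ± 0.56, and SLC30A1, the zinc exporter that responds to metal, 1.11 ± 0.46, while MT2A, a metallothionein, had -0.90 ± 0.50, or -0.60 without control replicate 1.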
